A study of Felis catus with 15 samples.

Results

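The corpus is the middle region of the epididymis, the coiled duct that receives sperm from the testis. The comparison described here sets 5 RNA-seq libraries of corpus pieces kept in culture against 5 libraries of fresh corpus tissue of the domestic cat (Felis catus), which are 10 of the 15 libraries of the series. The cultures had no vesicles added, and the libraries were made from polyadenylated RNA of pieces of whole tissue. The remaining libraries are of explants cultured with extracellular vesicles. They enter the filter on low counts, the scaling and the estimate of the spread between libraries, but neither side of the comparison. Members were taken by their labels, fresh tissue or culture, and not by any measured value. Sample descriptions and column names mark the fresh libraries D0 and the cultures D3, codes that the labels leave unexplained. The labels also give no medium, no age of the animals and no word on whether replicates are separate animals. The p-values below therefore measure the spread between these samples, which may be technical. Libraries are called fresh 1 to 5 and culture 1 to 5 after the replicate number in their titles.

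The epididymal duct is lined by principal cells, which absorb testicular fluid and secrete the proteins that coat maturing sperm, by clear cells, which acidify the lumen, and by basal cells, which lie on the basement membrane. Androgens, factors carried in the luminal fluid and contact with the surrounding smooth muscle and vessels maintain the epithelium in the animal. An explant is cut off from blood supply, innervation and luminal flow, and its cut edges expose epithelium and connective tissue to the medium.

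Each library held between 17751507 and 25454399 counts. Culture 3 stood apart: its log2 CPM (counts scaled to a common library size, the unit of every level below) correlated with the other cultures at 0.90 to 0.914 across genes, against 0.946 to 0.970 among the others. The 13 protein genes encoded in the mitochondrion took 0.179% of its counts, against 6.23% to 7.48% in the other cultures and 8.69% to 11.4% in fresh tissue. The explants cultured with vesicles under the same number gave 6.64%. Results are therefore given with and without culture 3, and values in brackets after a count are those without it.

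**Figure D1:**
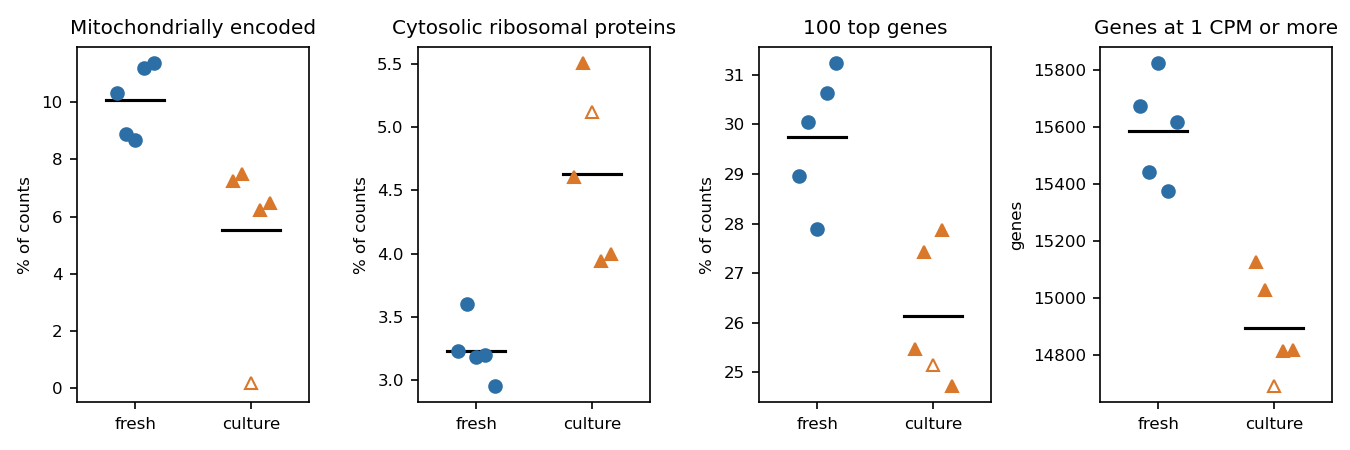
The 4 measures of each library, with fresh tissue and culture side by side: the share of counts in mitochondrially encoded protein genes, the share in cytosolic ribosomal protein genes and the share in the 100 genes with most counts (all in percent), and the number of genes at 1 CPM or more. Points are libraries, bars are group means, the open symbol is culture 3, and the axes of the last 3 panels do not reach 0. The groups do not overlap in any panel, and culture 3 lies near 0 in the mitochondrial panel.

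Culture and fresh tissue differed in a large share of the transcripts that could be tested. Of 18038 genes, 5175 were higher in culture (28.7%) and 4611 were lower (25.6%), which makes 54.3% called in either direction (edgeR quasi-likelihood test, Benjamini-Hochberg adjusted p under 0.05). Without culture 3 the share called was 59.9%, made up of 30.9% and 29%. These shares are the background for every count of genes below, and a group whose shares lie near them is like the whole of the genes tested. In 7308 genes (40.5%) the 5 cultures and the 5 fresh libraries did not overlap at all, 20.2% higher and 20.4% lower in culture. The median log2 change over all tested genes was 0.035, and no scaling method moved it by more than 0.1. By kind of gene, 12.3% of 2254 long non-coding RNAs rose and 40.5% fell, against 31.4% and 23.5% of 15435 protein-coding genes. In either direction this is 52.8% and 54.9%. Without culture 3, 61.6% of protein-coding genes were called (34.3% higher and 27.3% lower) and 52.8% of the non-coding RNAs, with 12% and 40.8% on either side.

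The make-up of the libraries shifted as a whole. The 100 genes with most counts took 29.8% ± 1.33 (SD, n = 5, as for all values here) of counts in fresh tissue and 26.1% ± 1.42 in culture, and 15586 ± 180.4 and 14895 ± 178 genes reached 1 CPM. Cytosolic ribosomal protein genes took 3.23% ± 0.233 in fresh tissue and 4.63% ± 0.686 in culture (4.51% without culture 3), and the mitochondrially encoded genes 10.1% ± 1.25 and 5.52% ± 3.03 (6.86% ± 0.598 without culture 3). In each of these 4 measures the 2 groups did not overlap (exact permutation test, 2-sided and unpaired, p = 0.00794, adjusted p = 0.00794 over 4 tests). This p is the lowest value possible for unpaired groups of 5. Without the mitochondrially encoded genes the share of the top 100 differed by -0.302 percentage points (exact permutation test, adjusted p = 0.77), and at 10 CPM or more culture had 257 more genes (exact permutation test, adjusted p = 0.151). In bulk tissue, fewer cells of a type and less RNA per cell cannot be told apart, and this holds for every result below.

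Among transcripts with a gene symbol, the 10 that gained most and the 10 that lost most reads between the groups were set apart, leaving out ribosomal and mitochondrial genes. A gain in CPM is a share of reads and grows with transcript length, so no order between genes is read from it. Most of the largest losses were in secreted or sperm-coating proteins of the epididymis. NPC2, the cholesterol-binding protein that is abundant in epididymal fluid, had 8520.3, 12604, 9804, 10243 and 10276 CPM in fresh libraries 1 to 5 and 522, 475, 359, 312 and 337 CPM in cultures 1 to 5 (log2 change -4.68 ± 0.24, groups apart). Groups apart means that no value of 1 group lies inside the range of the other, and the figure before it is the log2 change of culture over fresh tissue ± SE. RNASE11, a ribonuclease-like protein of the epididymis, went from 7972, 11363, 6550.1, 7285 and 6060.1 CPM in fresh tissue to 40.8, 27.6, 11.8, 15.4 and 10.7 in culture (log2 change -8.53 ± 0.53, groups apart), and CD52, the glycopeptide that is passed to the sperm surface, from 7228, 9562, 6011, 8909.9 and 6802 CPM in fresh tissue to 110.5, 84.2, 28.6, 38.1 and 58.3 in culture (log2 change -6.91 ± 0.49, groups apart). In both, every culture was below every fresh library. CRISP1, a secreted protein that binds sperm, had 8873, 8652, 7861, 7014 and 9606 CPM in fresh tissue and 2069, 2225, 596, 2833 and 1777 in culture (log2 change -2.14 ± 0.31, groups apart). Culture 3 was the lowest of the cultures, as in CD52. The sperm-binding protein ELSPBP1 (-6.02 ± 0.47), the beta-defensin DEFB112 (-6.74 ± 0.38) and the membrane protein ADAM7 (-4.84 ± 0.50) fell as well, where brackets hold the same log2 change ± SE. The other 3 of the 10 losses were the transmembrane protein ITM2B (-2.15 ± 0.16) and the endoplasmic reticulum proteins HSP90B1 (-1.63 ± 0.19) and DNAJC10 (-3.65 ± 0.22), a chaperone and a disulfide reductase. The largest adjusted p (edgeR) of the called genes named here was 3.83e-05.

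The largest gains were in other genes. CLU, a secreted chaperone that is also abundant in epididymal fluid, had 1732, 548, 3966, 1649 and 4979.7 CPM in fresh tissue and 26608, 25381, 13774, 34368 and 21368 in culture (log2 change 3.24 ± 0.49, groups apart). Fresh libraries varied, with fresh 2 lowest, and culture 3 was the lowest culture. SPP1, the secreted phosphoprotein osteopontin, had 154, 142, 93.3, 138 and 198 CPM in fresh tissue and 17260.5, 19809.8, 13822, 36519.8 and 20251 in culture (log2 change 7.22 ± 0.41, groups apart). Culture 3 had the lowest SPP1 value of the cultures, and every culture was above every fresh library. MMP7, a matrix protease made by injured epithelium, went from 5.13, 6.70, 5.19, 7.33 and 4.38 CPM in fresh tissue to 4396, 3188, 3250.2, 6254 and 2820.4 in culture (log2 change 9.44 ± 0.43, groups apart). LTF, the iron-binding protein lactoferrin, rose by 1.83 ± 0.34 on the log2 scale, the ferritin chain FTH1 (1.69 ± 0.23) rose, and so did the glycolytic enzyme GAPDH (2.33 ± 0.14), the cytoplasmic actin ACTG1 (1.69 ± 0.18), the basal keratin KRT5 (3.09 ± 0.42), the secreted growth factor binder IGFBP5 (4.84 ± 0.75) and the membrane-binding ANXA2 (3.12 ± 0.18). All called genes named in this group had an adjusted p of 3.67e-04 or less (edgeR). The fold change moved by over 1.5 times for IGFBP5 (log2 4.00 with limma-voom).

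**Figure D2:**
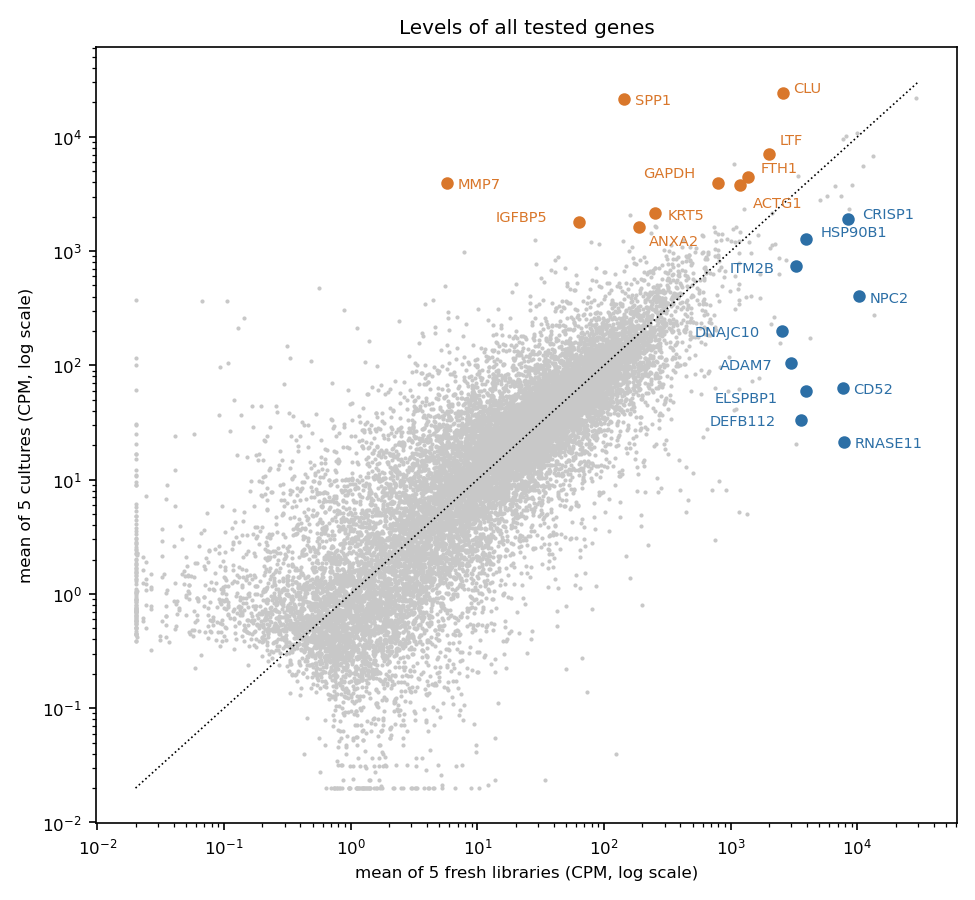
Mean level of each tested gene in fresh tissue (horizontal axis) and in culture (vertical axis), in CPM on log axes, with genes at 0 drawn at the lower edge. Grey points are all tested genes, blue points the 10 largest losses and orange points the 10 largest gains in CPM, each labelled with its symbol. NPC2, RNASE11 and CD52 lie far below the diagonal and SPP1 and MMP7 far above it.

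Some genes had counts in 1 group only. With 0 counts in all 5 fresh libraries and 10 or more in every culture there were 34 genes, 21 of them with a symbol, and the reverse held for 42 and 22. A fold against a group at 0 is a lower bound, taken against 3 counts over its 5 libraries. The highest of those at 0 counts in fresh tissue were the calcium binder S100A9 (at least 13679-fold higher), the vitamin B12 carrier TCN1 (3938-fold), the macrophage elastase MMP12 (1052-fold), the peptide precursor CALCA (823-fold), the mucosal keratin KRT4 (744-fold), the YAP-responsive ANKRD1 (549-fold), the collagenase MMP1 (513-fold) and the chloride transporter SLC26A9 (373-fold). CALCA was uneven, with 4.85, 15.7, 87.4, 12.2 and 4.90 CPM in cultures 1 to 5, and culture 3 held the most. ANKRD1 had 5.12, 9.42, 18.3, 5.76 and 45.7 CPM, with the most in culture 5. TCN1 had 99.2, 53.5, 14.9, 313 and 20.5 CPM, with the most in culture 4. At 0 counts in culture were the protease inhibitor SPINT4 (at least 388-fold lower), ATP1B4 (248-fold), the egg coat protein ZP2 (195-fold), the cadherin CDH10 (162-fold), LRRC7 (147-fold), the chemokine receptor of venules ACKR1 (121-fold), the calcium pump partner STRIT1 (121-fold) and TKTL1 (109-fold). SPINT4 was itself uneven in fresh tissue, at 3.69, 1.40, 36.2, 1.27 and 8.56 CPM, with most of it in fresh 3. The call was lost for KRT4 with limma-voom (adjusted p = 0.0707), and for MMP1 with limma-voom (adjusted p = 0.0957). The bounds moved by over 1.5 times for ANKRD1 (at least 325-fold without culture 5), CALCA (at least 338-fold without culture 3), KRT4 (at least 487-fold without culture 1), SPINT4 (at least 134-fold without fresh 3) and TCN1 (at least 1823-fold without culture 4).

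Beta-defensins, WFDC inhibitors, lipocalins and ribonucleases, families picked by symbol, were lower more often than higher. Of 18 beta-defensins, small antimicrobial peptides of which many coat sperm, 15 passed the filter on low counts. Of these 11 fell and 1 rose (1 higher and 11 lower without culture 3). DEFB129 (-6.46 ± 0.58) and DEFB134 (-4.76 ± 0.48) fell together with DEFB112, and the member that rose was DEFB1 (11.62 ± 0.70). The WFDC protease inhibitors had 6 lower and 2 higher of 8 tested (1 higher and 6 lower without culture 3), with WFDC9 (-7.81 ± 0.58) and WFDC11 (-6.82 ± 0.64) among the losses. All 3 lipocalins tested fell (0 higher and 3 lower without culture 3), namely LCN6 (-2.21 ± 0.82), LCN12 (-2.1 ± 0.39) and LCNL1 (-1.63 ± 0.27), and of 6 ribonuclease A family members 5 fell (0 higher and 5 lower without culture 3), among them RNASE10 (-4.52 ± 0.22) and RNASE12 (-7.96 ± 0.85). ABC transporters, which pump lipids and drugs across membranes, leaned the same way, with 14 of 38 lower and 5 higher (6 higher and 15 lower without culture 3), and ABCB9 (-2.72 ± 0.16) and ABCB5 (-4.66 ± 0.49) were among those that fell. Among the called genes named here, edgeR's adjusted p was 0.0319 or less. Lost calls were those of LCN6 without any 1 of fresh 3, culture 1, culture 2, culture 4 or culture 5, or with limma-voom (adjusted p = 0.0571 to 0.249). Fold changes that moved by over 1.5 times were those of DEFB1 (log2 12.46 with limma-voom and 12.71 without fresh 2), WFDC11 (log2 -6.16 without fresh 2), LCN6 (log2 -0.98 without fresh 3) and RNASE12 (log2 -8.69 without culture 1).

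Transporters of salt and water moved in both directions. Of 24 such genes tested, 13 rose and 8 fell (12 higher and 8 lower without culture 3). SLC9A2, a sodium-proton exchanger, had 53.6, 36.5, 55.6, 53.1 and 49.3 CPM in fresh tissue and 1.26, 0.686, 0.519, 0.680 and 0.791 in culture (log2 change -5.96 ± 0.28, groups apart). No culture reached 2 CPM. AQP9, the water and glycerol channel of principal cells, had 168, 200.3, 201, 215 and 242 CPM in fresh tissue and 21.5, 14.6, 7.01, 19.3 and 11.6 in culture (log2 change -3.79 ± 0.26, groups apart). The anion exchangers SLC26A3 (-4.14 ± 0.38) and SLC26A7 (-7.91 ± 0.66) and the water channel AQP1 (-1.32 ± 0.33) fell too. On the other side, the chloride channel CFTR, which principal cells use to secrete anions, had 15.8, 13.8, 14.8, 14.4 and 16.3 CPM in fresh tissue and 33.2, 40.7, 27.5, 57.6 and 54.5 in culture (log2 change 1.51 ± 0.20, groups apart). The sodium pump subunit ATP1B1 (1.48 ± 0.18), the chloride importer SLC12A2 (1.80 ± 0.25) and the water and glycerol channel AQP3 (2.89 ± 0.55) rose. The whole solute carrier family was close to the background, with 86 of 283 higher and 75 lower (97 higher and 81 lower without culture 3). SLC2A1 (2.92 ± 0.16), the glucose importer of most tissues, was among those that rose. For the called genes just named, the adjusted p (edgeR) reached 0.00329 at most.

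Principal cell markers were read as transcript levels. The 14 tested summed to 1130.5 to 1346 CPM in fresh tissue and 383 to 714 CPM in culture, and 9 fell and 2 rose (2 higher and 9 lower without culture 3). With no other tissue to compare, neither the tissue label nor the region of the duct was tested. Genes of the absorptive apical surface were lower more often than higher, with 9 of 19 tested genes down and 3 up (3 higher and 9 lower without culture 3). MME, the peptidase neprilysin on the surface of principal cells, had 277, 279, 252, 279 and 323 CPM in fresh tissue and 10.2, 9.19, 2.44, 6.68 and 14.1 in culture (log2 change -5.05 ± 0.39, groups apart). Culture 3 had the least. The actin bundler of microvilli ESPN (-2.70 ± 0.32), the peptidase ACE (-1.74 ± 0.18) and AMN, the partner of the scavenger receptor cubilin (-2.03 ± 0.27), fell, as did the receptor megalin, LRP2 (-1.70 ± 0.47). GGT1 (2.05 ± 0.35), which breaks down glutathione outside the cell, rose, and so did the brush border cadherin CDHR2 (4.88 ± 0.90). The membrane linker EZR (0.40 ± 0.19, adjusted p = 0.0960) was not called. By edgeR, the adjusted p of these called genes was at most 0.00617. A call was gained by EZR without culture 2 (log2 change 0.51). A shift of over 1.5 times was seen in the fold of CDHR2 (log2 5.62 without fresh 3). Apical endocytosis and brush border genes called higher numbered 5 with limma-voom.

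Regulators of epithelial identity moved in both directions, as did the whole of the genes tested (28.7% higher and 25.6% lower). Of 36 tested, 14 rose and 9 fell (13 higher and 7 lower without culture 3). PAX2, which patterns the duct from which the epididymis forms, had 221, 215, 197, 229 and 189 CPM in fresh tissue and 62.7, 29.9, 51.3, 56.5 and 37.7 in culture (log2 change -2.14 ± 0.20, groups apart). Its relative PAX8 had 303, 304, 250.1, 304 and 262 CPM in fresh tissue and 113, 64.4, 83.4, 107 and 80.1 in culture (log2 change -1.67 ± 0.21, groups apart). Both were even within fresh tissue. EMX2 (-0.97 ± 0.17), LHX1 (-1.14 ± 0.17), the epithelial repressor OVOL2 (-1.69 ± 0.19) and the splicing regulator ESRP2 (-1.39 ± 0.17) fell as well. SOX9, a regulator of progenitor and repair states in several epithelia, had 6.58, 6.46, 4.05, 11.3 and 4.90 CPM in fresh tissue and 42.5, 48.1, 88.6, 57.2 and 126 in culture (log2 change 3.45 ± 0.33, groups apart). Cultures 3 and 5 were the highest. SOX4 (2.58 ± 0.17), ELF3 (2.66 ± 0.37), CEBPB (2.82 ± 0.32) and OVOL1 (2.72 ± 0.44) rose. ETV4, a target of ERK signalling, had 0, 0, 0, 0 and 0.206 CPM in fresh tissue and 14.5, 15.1, 43.7, 19.8 and 26.9 CPM in culture (log2 change 9.11 ± 0.70, groups apart). Several general epithelial regulators were not called: GATA3 (-0.15 ± 0.26, adjusted p = 0.651) and GRHL2 (-0.20 ± 0.20, adjusted p = 0.406). HOX genes, which record position along the body and the duct, had 10 lower and 2 higher of 29 tested (2 higher and 11 lower without culture 3). HOXB8 (-1.81 ± 0.20), HOXD8 (-1.19 ± 0.18) and HOXD3 (-0.75 ± 0.13) had the smallest p among those that fell, and HOXC8 (1.84 ± 0.38) was among the 2 that rose. The largest adjusted p (edgeR) of the called genes named here was 7.42e-04. Moving by over 1.5 times were the folds of ETV4 (log2 12.09 without fresh 5, where the other fresh libraries are at 0 and the fit depends on the prior count).

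Genes of steroid signalling moved in both directions. Of 20 genes tested 9 fell and 4 rose (5 higher and 8 lower without culture 3). The receptor chaperone FKBP5 (-0.96 ± 0.17), whose level depends on steroid in many tissues, fell. The receptor chaperone FKBP4 (-0.92 ± 0.21) and the mineralocorticoid receptor NR3C2 (-1.40 ± 0.26) fell too. The glucocorticoid receptor NR3C1 (0.21 ± 0.18, adjusted p = 0.323) and the androgen-converting reductase SRD5A1 (0.03 ± 0.21, adjusted p = 0.914) were not called. HSD11B1, which regenerates active glucocorticoid, had 2 counts in all of fresh tissue and was 151 times higher in culture (95% interval 41.4 to 1250.5), where the cultures held 1.18, 8.09, 0.986, 1.36 and 2.69 CPM, and the sulfatase STS (1.96 ± 0.40) rose. In the lumicrine pathway, in which a testicular ligand acts on the receptor ROS1 of the epithelium, the receptor itself was not called (-0.23 ± 0.37, adjusted p = 0.620). Its phosphatase PTPN6 (-1.14 ± 0.16) fell. Targets of ERK, which this receptor drives, rose: DUSP6 from 22.4, 31.5, 21.7, 22.0 and 21.4 CPM in fresh tissue to 63.7, 48.3, 56.7, 91.0 and 95.8 in culture (log2 change 1.58 ± 0.22, groups apart), SPRY4 (2.52 ± 0.25) and ETV5 (1.11 ± 0.26), together 8 of 11 genes of the list higher and 1 lower (8 higher and 1 lower without culture 3). All called genes named in this group had an adjusted p of 0.00198 or less (edgeR). Among ratios from few counts, those that moved by over 1.5 times were of HSD11B1, at least 79.1-fold without fresh 1 (which holds both counts) and 81.0-fold without culture 2.

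Genes of basal and stratified epithelium were higher in culture. Basal cell markers had 13 of 14 higher and 1 lower (13 higher and 1 lower without culture 3), at a median log2 change of 3.18 (2.74). TP63, the transcription factor that defines basal cells, had 73.2, 72.1, 64.4, 44.2 and 59.3 CPM in fresh tissue and 167, 139.6, 76.4, 182 and 219.9 in culture (log2 change 1.32 ± 0.23, groups apart). The rise was smallest in culture 3. KRT17, a keratin of wounded and basal epithelium, had 13.6, 12.6, 18.2, 84.7 and 13.5 CPM in fresh tissue and 433, 562, 3125, 866 and 1206 in culture (log2 change 5.44 ± 0.71, groups apart). Fresh 4 stood above the other fresh libraries and culture 3 above the other cultures. Of 21 keratins tested 17 rose and 1 fell (16 higher and 1 lower without culture 3): the wound keratins KRT16 (6.38 ± 0.56) and KRT6A (7.48 ± 0.79) rose, as did the simple keratins KRT7 (4.15 ± 0.45), KRT19 (2.67 ± 0.39) and KRT23 (6.60 ± 0.56). The member that fell was KRT222 (-1.59 ± 0.41). Among the called genes named here, edgeR's adjusted p was 0.00394 or less. The fold change moved by over 1.5 times for KRT17 (log2 6.42 without fresh 4 and 4.76 without culture 3), KRT6A (log2 8.31 without fresh 4 and 8.38 with limma-voom), KRT16 (log2 5.55 without culture 3 and 5.62 with limma-voom) and KRT7 (log2 3.56 without culture 3).

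Stratified and squamous genes include the keratins of several layers, the desmosomes that join cells and the proteins of the cornified envelope. Of 32 listed genes 25 were found by symbol among the deposited genes and 23 passed the filter. Of these 19 rose and 1 fell (17 higher and 0 lower without culture 3). IVL, involucrin of the cornified envelope, had 0.176, 0.241, 0.308, 0 and 0.928 CPM in fresh tissue and 60.2, 47.0, 80.5, 219 and 177 CPM in culture (log2 change 8.45 ± 0.76, groups apart). The inhibitor-like SERPINB5 (5.45 ± 0.32), the desmosomal cadherins DSG3 (3.87 ± 0.36) and DSC3 (2.77 ± 0.37), the linker JUP (2.15 ± 0.24) and ANXA1 (2.35 ± 0.16) rose, and the member that fell was CSTA (-1.69 ± 0.66). The envelope cross-linker TGM1 (0.32 ± 0.46, adjusted p = 0.582) and the simple-epithelium cadherin DSC2 (0.21 ± 0.27, adjusted p = 0.525) were not called. For the called genes just named, the adjusted p (edgeR) reached 0.0420 at most. The call was lost for CSTA without any 1 of fresh 1, fresh 3, fresh 4, culture 1, culture 2, culture 3, culture 4 or culture 5, or with limma-voom, no filter or the 10 libraries alone (adjusted p = 0.050 to 0.412). Fold changes that moved by over 1.5 times were those of IVL (log2 9.22 without fresh 5) and CSTA (log2 -0.75 with limma-voom and -0.90 without fresh 1).

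Adhesion to matrix rose with them. Of 15 genes for hemidesmosomes, their laminin and its receptors, 13 rose and 1 fell (14 higher and 1 lower without culture 3), at a median log2 change of 2.89 (2.65). LAMA3, the alpha chain of the laminin that anchors hemidesmosomes, had 30.8, 37.7, 40.0, 16 and 34.2 CPM in fresh tissue and 282, 338, 674, 428 and 1189 in culture (log2 change 4.20 ± 0.42, groups apart). No fresh library reached the cultures. Its partner LAMB3 (3.99 ± 0.41) rose, with the receptors ITGA2 (5.64 ± 0.36), ITGA3 (2.89 ± 0.26) and ITGB6 (3.82 ± 0.28), and ITGB4 (2.31 ± 0.28) and COL17A1 (3.27 ± 0.42) of the hemidesmosome. DST (-1.08 ± 0.24) fell. Of 30 integrin subunits 15 rose and 7 fell (18 higher and 7 lower without culture 3), with ITGB3 (5.60 ± 0.32) among the former and ITGA4 (-3.63 ± 0.35), which leukocytes use, among the latter. The list of migration and mesenchymal genes had 17 of 24 higher and 1 lower (16 higher and 1 lower without culture 3). CD44, a hyaluronan receptor of activated epithelium, had 19.9, 19.4, 16.4, 17.1 and 27.8 CPM in fresh tissue and 352, 439, 498, 509.8 and 773 in culture (log2 change 4.68 ± 0.23, groups apart). MSN (3.03 ± 0.20), FSCN1 (4.68 ± 0.38), the P-cadherin CDH3 (3.79 ± 0.26) and the urokinase receptor PLAUR (4.59 ± 0.50) rose, PODXL (-1.60 ± 0.12) fell, and both the mesenchymal filament VIM (2.1 ± 0.38) and the epithelial cadherin CDH1 (1.28 ± 0.23) rose. The N-cadherin CDH2 (-0.84 ± 0.73, adjusted p = 0.344) and the mesenchymal regulator TWIST1 (-0.41 ± 0.41, adjusted p = 0.421) were not called. By edgeR, the adjusted p of these called genes was at most 0.00163. A shift of over 1.5 times was seen in the fold of LAMB3 (log2 3.24 with limma-voom) and COL17A1 (log2 2.67 with limma-voom).

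Matrix genes rose more often than they fell. The median log2 change of the collagens was 1.67 with culture 3 and 0.80 without it. Of 40 collagens tested 21 rose and 2 fell (16 higher and 2 lower without culture 3), with the basement membrane chain COL4A1 at 50.7, 54.8, 31.0, 25.5 and 41.8 CPM in fresh tissue and 357, 578, 1679.7, 188 and 484 in culture (log2 change 4.01 ± 0.58, groups apart). Culture 3 was the highest. Of 17 matrix metalloproteinases 14 rose and 0 fell (14 higher and 0 lower without culture 3). The gelatinase MMP9, which cuts basement membrane collagen, had 2.19, 3.57, 3.96, 7.5 and 8.35 CPM in fresh tissue and 74.8, 196, 202, 62.6 and 146 in culture (log2 change 4.74 ± 0.49, groups apart). The collagenase MMP13 had 0.307, 0.522, 0, 0.404 and 1.60 CPM in fresh tissue and 187, 641, 354, 422 and 771 CPM in culture (log2 change 9.73 ± 0.76, groups apart). Of 17 serpins, most of which inhibit proteases, 11 rose and 2 fell (12 higher and 2 lower without culture 3). SERPINE2, an inhibitor of urokinase and thrombin, had 5.44, 4.58, 2.77, 3.35 and 2.16 CPM in fresh tissue and 28.9, 72.0, 37.4, 51.5 and 50.6 in culture (log2 change 3.71 ± 0.33, groups apart), and SERPINF1, the vessel-restraining factor, fell from 1187, 1157, 983, 1473 and 717 CPM in fresh tissue to 32.5, 109, 18.0, 23.9 and 23.3 in culture (log2 change -4.74 ± 0.51, groups apart). S100A proteins, calcium binders of which several are released by stressed epithelium, had 10 of 12 higher and 0 lower (10 higher and 0 lower without culture 3). S100A10 (2.58 ± 0.18) and S100A6 (3.35 ± 0.27) were among those that rose, and S100A8 had 0, 0, 0, 0.231 and 0.103 CPM in fresh tissue and 271, 207, 192, 705 and 435 CPM in culture (log2 change 12.50 ± 0.75, groups apart). The largest adjusted p (edgeR) of the called genes named here was 3.39e-05. Moving by over 1.5 times were the folds of COL4A1 (log2 3.12 with limma-voom and 3.31 without culture 3), MMP13 (log2 10.57 without fresh 5), SERPINF1 (log2 -5.49 without culture 2) and S100A8 (log2 13.67 without fresh 4). Collagens called lower numbered 5 with limma-voom.

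**Figure D3:**
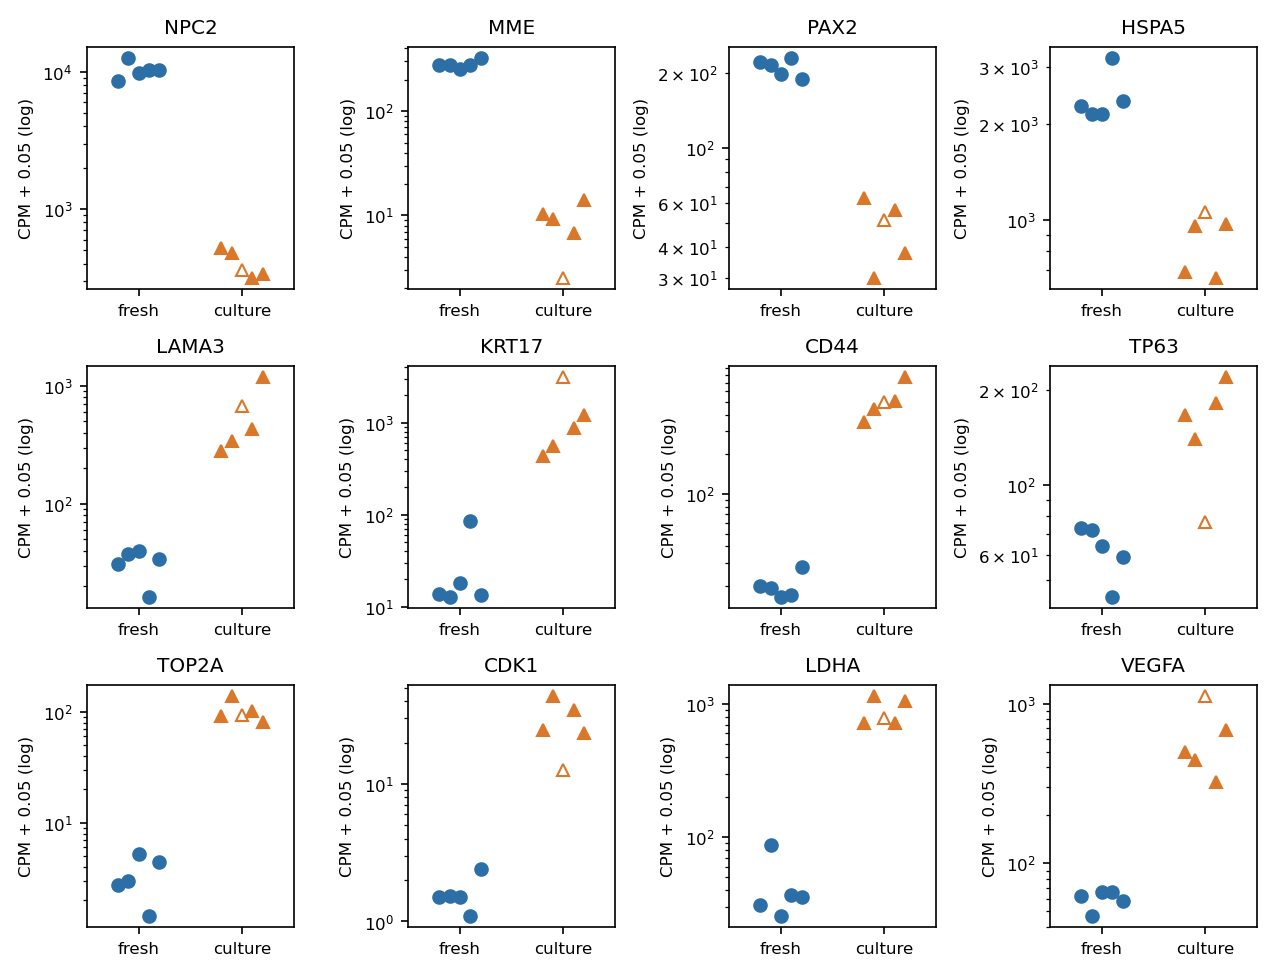
Level in each library, in CPM on a log axis with 0.05 added, for 12 genes: 4 lower in culture (NPC2, MME, PAX2, HSPA5), 4 of adhesion and basal epithelium (LAMA3, KRT17, CD44, TP63) and 4 of division and metabolism (TOP2A, CDK1, LDHA, VEGFA). Circles are fresh libraries, triangles cultures, and the open triangle is culture 3. In all 12 panels the groups do not overlap.

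Most genes of EGF family signalling were higher in culture. In the EGF family list 18 of 24 tested genes rose and 2 fell (19 higher and 2 lower without culture 3). The ligand AREG had 0.790, 0, 0.616, 1.39 and 1.65 CPM in fresh tissue and 41.1, 12.7, 29.2, 37.7 and 33.0 in culture (log2 change 5.14 ± 0.68, groups apart). EGF itself went the other way, from 14.2, 41.5, 17.3, 40.1 and 24.3 CPM in fresh tissue to 3.11, 2.15, 1.87, 4.52 and 0.791 in culture (log2 change -3.45 ± 0.44, groups apart). EGF varied among the fresh libraries. The ligands TGFA (3.72 ± 0.41), EREG (5.09 ± 0.69), HBEGF (3.12 ± 0.69) and NRG1 (2.60 ± 0.29) rose. Among receptors EGFR (1.40 ± 0.19) rose, and ERBB2 (0.069 ± 0.23, adjusted p = 0.822) and ERBB3 (-0.17 ± 0.23, adjusted p = 0.557) were not called. The feedback inhibitors ERRFI1 (3.17 ± 0.38) and DUSP4 (4.84 ± 0.48) rose. In the IL6 family, whose receptors share IL6ST and signal through STAT3, 12 of 19 rose and 2 fell (13 higher and 2 lower without culture 3). LIF, one of its ligands, had 1.40, 2.17, 1.28, 12.0 and 1.29 CPM in fresh tissue and 71.7, 159, 256, 184 and 292 in culture (log2 change 5.75 ± 0.70, groups apart). Fresh 4 was the highest fresh library. The ligand IL11 had 0, 0.161, 0.176, 0 and 0.258 CPM in fresh tissue and 18.2, 78.4, 85.9, 18.5 and 47.5 CPM in culture (log2 change 8.62 ± 0.86, groups apart), and IL6 had 0, 0, 0, 2.08 and 0 CPM in fresh tissue and 5.36, 94.4, 7.84, 19.6 and 31.2 CPM in culture (log2 change 6.41 ± 1.45, groups apart). All of the IL6 in fresh tissue was in fresh 4. The receptor OSMR had 45.0, 29.6, 42.0, 25.2 and 52.2 CPM in fresh tissue and 357, 402, 247, 344 and 419 in culture (log2 change 3.19 ± 0.21, groups apart), and STAT3 (1.72 ± 0.14) and the shared chain IL6ST (1.03 ± 0.31) rose. The receptor LIFR (-0.32 ± 0.22, adjusted p = 0.237) and the inhibitor SOCS3 (0.87 ± 0.43, adjusted p = 0.101) were not called. All called genes named in this group had an adjusted p of 0.0107 or less (edgeR). Lost calls were those of IL6 with limma-voom (adjusted p = 0.0836). Called in other settings were SOCS3 without fresh 4, or with limma-voom (log2 change 1.13 to 1.61). The fold change moved by over 1.5 times for AREG (log2 6.31 with limma-voom), EREG (log2 6.41 with limma-voom and 6.12 without fresh 4), HBEGF (log2 3.92 with limma-voom and 4.80 without fresh 4), IL6 (log2 8.16 with limma-voom and 12.50 without fresh 4, where the other fresh libraries are at 0 and the fit depends on the prior count and 5.43 without culture 2) and LIF (log2 6.96 without fresh 4).

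Chemokines moved in both directions, as did the whole of the genes tested (28.7% higher and 25.6% lower). Of 28 listed, 20 were found by symbol among the deposited genes and 18 passed the filter. Of these 7 rose and 4 fell (7 higher and 4 lower without culture 3). CXCL8, which attracts neutrophils, had 0, 0, 0, 1.56 and 0 CPM in fresh tissue and 42.9, 192, 51.9, 133 and 312 CPM in culture (log2 change 9.06 ± 1.17, groups apart). All of its counts in fresh tissue were in fresh 4. The membrane-bound CXCL16 (3.91 ± 0.26) and the mucosal CXCL17 (5.38 ± 0.73) rose. The homeostatic CCL28 (-2.15 ± 0.68) and CXCL12 (-1.61 ± 0.55) fell, and the lymphoid CXCL13 had 2.81, 1.04, 2.64, 1.10 and 1.65 CPM in fresh tissue and 0, 0, 0, 0.160 and 0 CPM in culture (log2 change -5.51 ± 0.90, groups apart). The interferon-induced CXCL10 (0.70 ± 0.90, adjusted p = 0.535) and CXCL9 (-1.12 ± 1.07, adjusted p = 0.395) were not called. Prostaglandin genes had 9 of 16 higher and 3 lower (8 higher and 3 lower without culture 3). The inducible cyclooxygenase PTGS2 had 3.20, 1.28, 1.5, 7.85 and 0.876 CPM in fresh tissue and 33.2, 67.5, 24.9, 41.9 and 138 in culture (log2 change 4.39 ± 0.71, groups apart), again with fresh 4 the highest fresh library. PTGES (3.42 ± 0.41), which makes prostaglandin E2 downstream of it, the lipase PLA2G4A (2.06 ± 0.21) and the uptake carrier SLCO2A1 (3.22 ± 0.25) rose. PTGDS (-2.44 ± 0.50), the prostaglandin D synthase secreted by epididymal epithelium, fell, and the constitutive PTGS1 (-0.60 ± 0.51, adjusted p = 0.340) was not called. Among the called genes named here, edgeR's adjusted p was 0.0211 or less. The call was lost for CXCL12 without fresh 2 or every library numbered 3 (adjusted p = 0.0503 to 0.0522). A call was gained by PTGS1 with limma-voom (log2 change -1.20). Fold changes that moved by over 1.5 times were those of CXCL8 (log2 11.05 with limma-voom and 14.71 without fresh 4, where the other fresh libraries are at 0 and the fit depends on the prior count), CXCL17 (log2 6.64 with limma-voom and 6.22 without fresh 4), PTGS2 (log2 5.15 without fresh 4) and CXCL13 (log2 -8.37 without culture 4, where the other culture libraries are at 0 and the fit depends on the prior count).

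Developmental signals moved in both directions, as did the whole of the genes tested (28.7% higher and 25.6% lower). Wnt genes had 14 higher and 8 lower of 35 tested (13 higher and 12 lower without culture 3). The ligands WNT5A (2.52 ± 0.31), WNT5B (4.55 ± 0.34), WNT4 (2.99 ± 0.26) and WNT7B (2.20 ± 0.37) rose, WNT2B (-2.23 ± 0.51) fell, the receptor FZD6 (1.92 ± 0.15) rose and FZD4 (-1.16 ± 0.17) fell, and the receptor-removing ligase ZNRF3 (-1.71 ± 0.15) fell. AXIN2, a target of the beta-catenin branch, was not called (-0.38 ± 0.18, adjusted p = 0.0888). Notch genes had 11 of 19 higher and 1 lower (13 higher and 2 lower without culture 3). Its target HES1 had 5.66, 6.54, 4.53, 8.54 and 3.45 CPM in fresh tissue and 67.4, 57.0, 69.1, 77.1 and 63.5 in culture (log2 change 3.54 ± 0.21, groups apart), and NRARP (2.74 ± 0.22), JAG1 (2.24 ± 0.21), NOTCH1 (2.59 ± 0.35) and DLL4 (3.08 ± 0.39) rose while DLL1 (-1.42 ± 0.41) fell. BMP and activin genes had 14 of 25 higher and 4 lower (16 higher and 4 lower without culture 3). The ligands INHBB (6.0 ± 0.45) and BMP2 (2.78 ± 0.34), the targets ID1 (3.62 ± 0.46) and ID3 (2.98 ± 0.36) and the inhibitor FSTL3 (3.04 ± 0.22) rose, and the receptor BMPR1B (-2.67 ± 0.21) and the ligand BMP4 (-1.35 ± 0.45) fell. In the retinoid and vitamin D list 14 of 21 rose and 4 fell (14 higher and 4 lower without culture 3). The retinol importer STRA6 (3.03 ± 0.16), the retinoic acid receptor RARA (2.47 ± 0.17) and the vitamin D receptor VDR (3.28 ± 0.22) rose, and the vitamin D degrading enzyme CYP24A1 had 0, 0.321, 0.220, 0 and 0 CPM in fresh tissue and 73.6, 48.8, 156, 112 and 129 CPM in culture (log2 change 9.70 ± 0.66, groups apart). Of the enzymes that make retinoic acid, ALDH1A3 rose from 9.0, 14.0, 4.67, 6.41 and 5.21 CPM in fresh tissue to 44.4, 167, 69.9, 58.8 and 51.6 in culture (log2 change 3.32 ± 0.47, groups apart), and ALDH1A1 fell from 2566, 2935, 1767, 2598 and 2245 CPM in fresh tissue to 925, 474, 376, 829 and 517 in culture (log2 change -1.96 ± 0.26, groups apart). The 2 enzymes moved in opposite directions, and ALDH1A2 (-2.16 ± 0.31) fell with ALDH1A1. For the called genes just named, the adjusted p (edgeR) reached 0.0199 at most. Lost calls were those of BMP4 without fresh 2 (adjusted p = 0.0733). Called in other settings were AXIN2 without culture 3, or with limma-voom or upper-quartile scaling (log2 change -0.61 to -0.48). A shift of over 1.5 times was seen in the fold of WNT2B (log2 -1.56 without fresh 2), CYP24A1 (log2 10.62 without fresh 2 and 10.34 with limma-voom) and DLL1 (log2 -2.09 without culture 3). Wnt genes called lower numbered 13 with limma-voom.

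**Figure D4:**
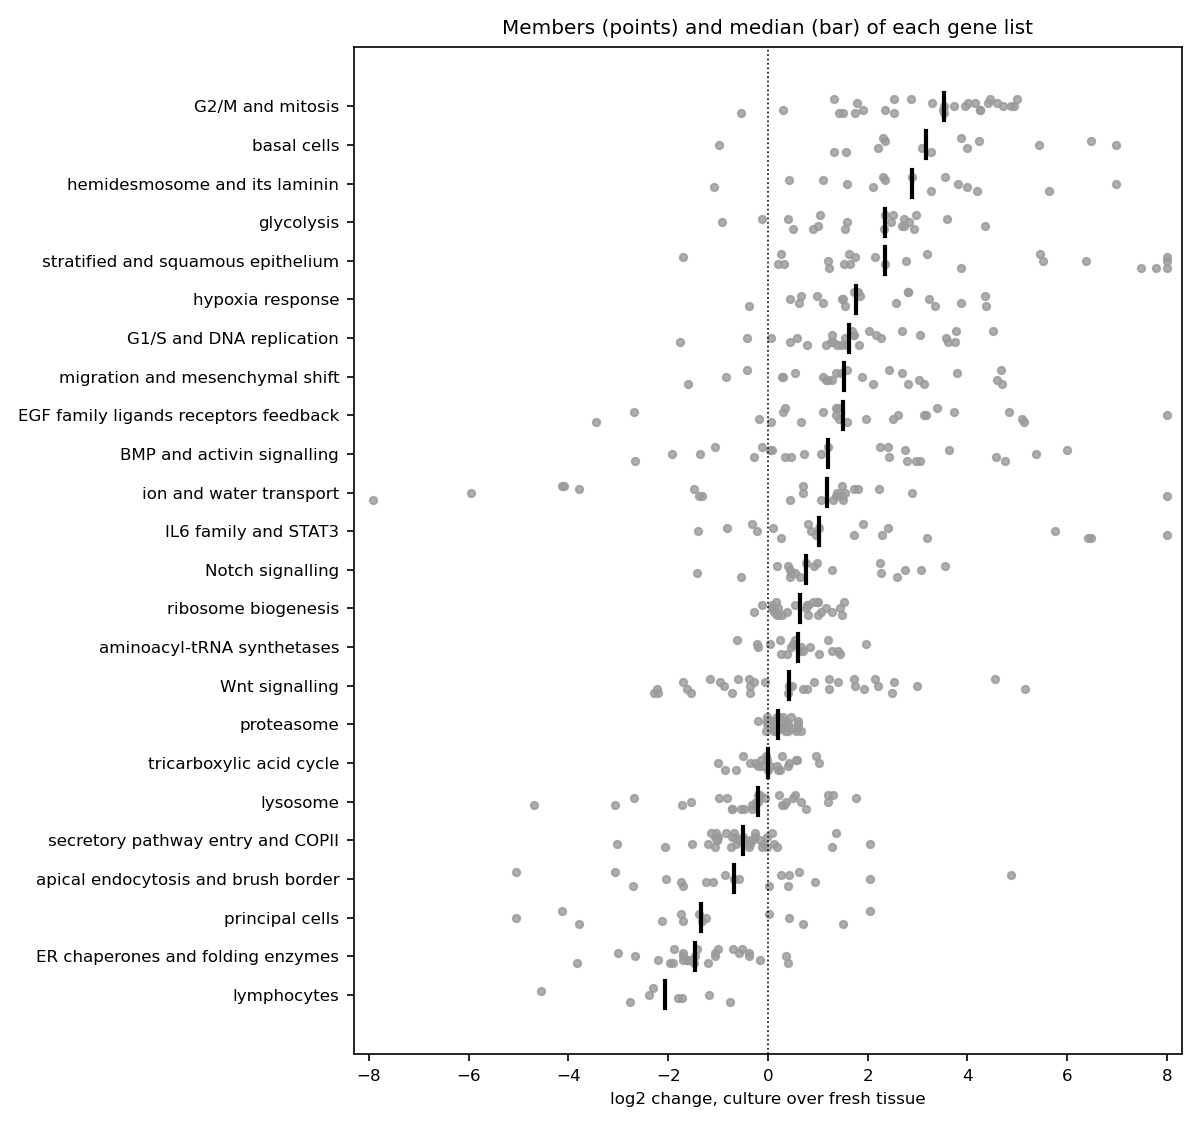
Log2 change of culture over fresh tissue for each tested member of 24 gene lists (grey points) and the median of each list (bars), ordered by the median. The dotted line is no change, and 6 points beyond the axis limits of -8 and 8 are drawn at the edge. Mitosis, hemidesmosome, glycolysis and squamous lists lie on the right, endoplasmic reticulum folding on the left, and the tricarboxylic acid cycle and proteasome lists near 0.

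Transcripts of dividing cells were higher in culture. Of 29 genes of the G2 and M phases 27 rose and 0 fell (27 higher and 0 lower without culture 3), at a median log2 change of 3.53 (3.49), against 24 and 2 of 28 genes of G1, S and replication (25 higher and 2 lower without culture 3), at 1.62 (1.47). The difference between these lists was not tested. TOP2A, the topoisomerase that untangles chromosomes, had 2.72, 2.97, 5.15, 1.39 and 4.38 CPM in fresh tissue and 91.3, 139, 93.1, 102 and 81.4 in culture (log2 change 4.92 ± 0.30, groups apart). CDK1, the kinase that starts mitosis, had 1.45, 1.49, 1.45, 1.04 and 2.37 CPM in fresh tissue and 24.5, 43.6, 12.6, 34.7 and 23.5 in culture (log2 change 4.15 ± 0.31, groups apart). Both were near 0 in fresh tissue, and every culture was higher. PRC1 (4.26 ± 0.22), CENPF (4.60 ± 0.33) and BUB1 (4.46 ± 0.38) also rose. Cyclin B1 and BUB1B, which work in mitosis, were not called: CCNB1 (0.30 ± 0.23, adjusted p = 0.274) and BUB1B (-0.55 ± 0.24, adjusted p = 0.0676). Among replication genes MCM6 (2.68 ± 0.16), MCM3 (3.61 ± 0.23) and RRM2 (3.06 ± 0.32) rose, GINS2 (-1.75 ± 0.33) and POLA1 (-0.42 ± 0.13) fell, and PCNA (0.44 ± 0.27, adjusted p = 0.174) was not called. Of 18 inhibitors of division 6 rose and 3 fell (6 higher and 2 lower without culture 3). CDKN1A, the p21 inhibitor, rose from 1.62, 1.32, 2.99, 8.49 and 2.83 CPM in fresh tissue to 92.3, 106, 257, 110.0 and 216 in culture (log2 change 5.52 ± 0.50, groups apart). Fresh 4 was the highest fresh library. CDKN2B (2.98 ± 0.45) rose, BTG2 (-1.37 ± 0.38) fell, and CDKN1B (0.045 ± 0.15, adjusted p = 0.823) and MDM2 (-0.16 ± 0.14, adjusted p = 0.350) were not called. By edgeR, the adjusted p of these called genes was at most 0.0136. A call was gained by BUB1B without any 1 of fresh 1, fresh 4 or culture 2, or with DESeq2 or upper-quartile scaling (log2 change -0.67 to -0.58), and by PCNA without culture 3, or with limma-voom (log2 change 0.57 to 0.67). Moving by over 1.5 times were the folds of CDKN1A (log2 6.16 without fresh 4) and BTG2 (log2 -0.70 without fresh 4).

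Genes of cell death had 12 of 23 higher and 3 lower (13 higher and 3 lower without culture 3). The death receptor FAS (2.47 ± 0.22) and the promoters of death BID (1.71 ± 0.22) and BBC3 (2.61 ± 0.45) rose, and so did the survival proteins BCL2L1 (1.02 ± 0.25) and MCL1 (0.81 ± 0.20). BMF (-1.60 ± 0.15), which senses detachment, and the survival protein BCL2 (-0.86 ± 0.19) fell. The largest adjusted p (edgeR) of the called genes named here was 0.00321. The fold change moved by over 1.5 times for BBC3 (log2 1.99 without culture 3).

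Genes of protein synthesis rose more often than they fell. Ribosomal proteins of the large subunit had 29 of 50 higher and 1 lower (36 higher and 1 lower without culture 3), and those of the small subunit 23 and 0 of 32 (24 higher and 0 lower without culture 3). The medians were 0.53 and 0.79. Ribosome assembly factors had 16 of 28 higher and 0 lower (21 higher and 1 lower without culture 3), with the histone chaperone of the nucleolus NPM1 from 209, 224, 211, 234 and 214 CPM in fresh tissue to 549.7, 712, 672, 596 and 631 in culture (log2 change 1.53 ± 0.11, groups apart). Initiation and elongation factors had 13 of 25 higher and 1 lower (16 higher and 2 lower without culture 3). The helicase EIF4A1 (1.48 ± 0.13) and the brake EIF4EBP1 (2.31 ± 0.26) rose. Of 20 enzymes that load amino acids on tRNA 15 rose and 1 fell (15 higher and 2 lower without culture 3), with SARS1 (1.45 ± 0.10), GARS1 (1.40 ± 0.14) and WARS1 (1.98 ± 0.20) among those that rose. Amino acid transporters and synthetic enzymes had 17 of 29 higher and 6 lower (18 higher and 7 lower without culture 3): the glutamine importer SLC1A5 (3.40 ± 0.20) and the serine and proline enzymes SHMT2 (2.54 ± 0.20) and PYCR1 (2.91 ± 0.35) rose, and the cystine importer SLC7A11 (-1.55 ± 0.28) fell. All called genes named in this group had an adjusted p of 2.82e-04 or less (edgeR).

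The folding machinery of the endoplasmic reticulum, through which all secreted proteins pass, was lower almost throughout. Of 28 chaperones, folding enzymes and their regulators 25 fell and 0 rose (1 higher and 24 lower without culture 3), at a median log2 change of -1.47 (-1.51). The chaperone HSPA5, also known as BiP, had 2273, 2146, 2140.3, 3204 and 2349 CPM in fresh tissue and 689, 963, 1062, 659 and 977 in culture (log2 change -1.48 ± 0.18, groups apart). SDF2L1, which works with it, had 327, 319, 298, 286 and 247 CPM in fresh tissue and 14.8, 20.2, 43.0, 13.8 and 11.8 in culture (log2 change -3.83 ± 0.32, groups apart). ERP29, a folding factor for secreted proteins, had 1019, 1279, 913, 851 and 761 CPM in fresh tissue and 114, 129.7, 159, 107 and 87.4 in culture (log2 change -3.01 ± 0.18, groups apart). Fresh 4 was the highest fresh library for HSPA5, and culture 3 the highest culture for all of these genes. The sensor ERN1 (-1.21 ± 0.12), the disulfide isomerase PDIA4 (-1.90 ± 0.15), the ligase SYVN1 (-1.96 ± 0.12), which marks misfolded proteins, and the lectin CALR (-1.71 ± 0.18) fell as well. P4HB (0.36 ± 0.24, adjusted p = 0.230) and ERO1A (0.40 ± 0.24, adjusted p = 0.181), which form disulfide bonds, and the sensor EIF2AK3 (-0.17 ± 0.16, adjusted p = 0.382) were not called. The gate into the reticulum and the coat of its outgoing vesicles had 19 of 39 lower and 3 higher (5 higher and 23 lower without culture 3). The signal peptidase subunits SPCS3 (-2.06 ± 0.14) and SEC11C (-3.02 ± 0.21) and the glycosylation subunits DDOST (-1.51 ± 0.12) and RPN1 (-1.13 ± 0.12) fell. Of the paired coat proteins SEC23B (-1.20 ± 0.10) fell and SEC23A (1.28 ± 0.27) rose, and KDELR3 (2.05 ± 0.39) rose. Among the called genes named here, edgeR's adjusted p was 9.19e-04 or less. Called in other settings were ERO1A without culture 3 (log2 change 0.57).

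Genes of protein degradation were set beside the 28.7% higher and 25.6% lower over all genes tested. Proteasome subunits had 11 of 33 higher, near that share, and 0 lower (20 higher and 2 lower without culture 3). Their median was 0.20 and 22 were not called, while PSMB6 (0.60 ± 0.11) and PSMC3 (0.61 ± 0.13) rose. Lysosome genes had 6 higher and 11 lower of 30 (7 higher and 11 lower without culture 3), at a median of -0.20. The membrane protein LAMP2 had 2012, 2098, 2034, 2249.8 and 2668 CPM in fresh tissue and 323, 279, 56.0, 339 and 332 in culture (log2 change -3.06 ± 0.35, groups apart), and GLA (-2.68 ± 0.18) and NEU1 (-1.54 ± 0.12) fell, while the cathepsins CTSB (1.77 ± 0.16) and CTSC (1.21 ± 0.19) rose. For the called genes just named, the adjusted p (edgeR) reached 0.00113 at most. Proteasome subunits called higher numbered 6 with upper-quartile scaling or the 10 libraries alone, and 20 with limma-voom.

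Glycolytic genes were higher in culture. Of 21 glycolytic genes 18 rose and 1 fell (17 higher and 1 lower without culture 3), at a median log2 change of 2.36 (2.22). LDHA, the lactate dehydrogenase subunit that makes lactate, had 30.9, 86.5, 25.3, 36.7 and 35.7 CPM in fresh tissue and 713, 1146, 789, 714 and 1056 in culture (log2 change 4.36 ± 0.33, groups apart). Fresh 2 was the highest fresh library. Its partner LDHB, which favours the reverse reaction, had 2325, 1843, 1561, 2408 and 2020.1 CPM in fresh tissue and 1051, 757, 1834, 994 and 697 in culture (log2 change -0.93 ± 0.24, groups overlapping). Culture 3 lay among the fresh libraries. The glycolytic enzymes PGAM1 (2.82 ± 0.12) and ENO1 (2.72 ± 0.17) and the lactate exporter SLC16A3 (3.58 ± 0.43) rose, and HK2 (0.39 ± 0.30, adjusted p = 0.285) was not called. Genes induced by low oxygen had 18 of 20 higher and 0 lower (18 higher and 0 lower without culture 3). VEGFA, which attracts vessels, had 62.5, 46.5, 66.0, 66.4 and 58.2 CPM in fresh tissue and 495, 442, 1117, 322 and 684 in culture (log2 change 3.35 ± 0.33, groups apart), and BNIP3 (2.81 ± 0.20), DDIT4 (3.86 ± 0.29) and the collagen hydroxylase P4HA1 (2.81 ± 0.23) rose. The tricarboxylic acid cycle had 6 higher and 6 lower of 23 (10 higher and 7 lower without culture 3), at a median of 0.00. PDHA1 (0.96 ± 0.10) and DLST (1.03 ± 0.11) rose, and PDHB (-0.86 ± 0.12) and IDH2 (-1.0 ± 0.19) fell. Fatty acid oxidation had 5 higher and 9 lower of 23 (6 higher and 9 lower without culture 3). The gatekeeper of fatty acid import into mitochondria, CPT1A (2.52 ± 0.24), rose, and EHHADH (-2.70 ± 0.35), ACADL (-1.30 ± 0.16) and the regulator PPARA (-1.26 ± 0.17) fell. By edgeR, the adjusted p of these called genes was at most 0.00366.

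The mitochondrially encoded genes depend on culture 3. With it, 1 of 13 fell, CYTB (-1.88 ± 0.65). Without it 12 fell, at a median log2 change of -0.58 instead of -0.91. Every one of the 5 cultures lay below every fresh library in 12 of the 13 genes. COX3, a subunit of cytochrome oxidase, had 10922, 10409, 9487, 12843 and 11511 CPM in fresh tissue and 7224, 8230.2, 127, 6384 and 5782 in culture (log2 change -0.99 ± 0.59, adjusted p = 0.165, groups apart), and culture 3 was far below the rest. Nuclear genes of complex I had 13 of 37 lower and 2 higher (4 higher and 18 lower without culture 3). Iron and zinc genes had 7 higher and 3 lower of 15 tested (8 higher and 3 lower without culture 3). Of 25 listed, 16 were found by symbol among the deposited genes. Haem oxygenase, HMOX1 (3.02 ± 0.39), rose, beside the ferritin chain named above. The zinc exporter SLC30A2 fell from 213, 227, 232, 233 and 107 CPM in fresh tissue to 27.1, 18.6, 12.8, 11 and 2.11 in culture (log2 change -3.82 ± 0.53, groups apart). The largest adjusted p (edgeR) of the called genes named here was 0.0229. The call was lost for CYTB with the 10 libraries alone (adjusted p = 0.0536). A call was gained by COX3 without culture 3, or with limma-voom (log2 change -0.77 to -0.67). Fold changes that moved by over 1.5 times were those of HMOX1 (log2 3.74 without fresh 4). Mitochondrially encoded genes called lower numbered 7 with limma-voom, and nuclear complex I genes called higher numbered 5 with limma-voom, and nuclear complex I genes called lower numbered 8 without any 1 of fresh 1, fresh 2, fresh 4 or culture 5, or with no filter or the 10 libraries alone.

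Circadian clock genes were measured at single points, so no phase can be read from them. Of 18 tested 4 rose and 6 fell (6 higher and 6 lower without culture 3). The repressor CRY1 had 90.2, 90.3, 69.8, 109 and 117 CPM in fresh tissue and 13.4, 14.0, 5.14, 12.3 and 14.3 in culture (log2 change -3.01 ± 0.25, groups apart). BHLHE40 (2.31 ± 0.37) rose and NR1D2 (-1.0 ± 0.22) and CLOCK (-0.96 ± 0.30) fell, and the activator ARNTL (0.31 ± 0.14, adjusted p = 0.0706) and the repressor CRY2 (-0.02 ± 0.17, adjusted p = 0.928) were not called. All called genes named in this group had an adjusted p of 0.0123 or less (edgeR). Called in other settings were ARNTL without culture 3, or with limma-voom (log2 change 0.35 to 0.39). A shift of over 1.5 times was seen in the fold of BHLHE40 (log2 2.96 without fresh 4).

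Markers of the other cells of the tissue were read as transcript levels and not as numbers of cells. Over all genes tested 28.7% rose and 25.6% fell, which is the background for the marker counts. The fibroblast markers SCARA5 (-3.50 ± 0.49) and PDGFRB (2.83 ± 0.45) moved in opposite directions, the first down. Fibroblast markers had 2 higher and 1 lower of 12 (4 higher and 1 lower without culture 3), and their summed level was 548 to 1703 CPM in fresh tissue and 819 to 5213 CPM in culture. Smooth muscle markers had 4 higher and 0 lower of 12 (4 higher and 0 lower without culture 3), with a summed level of 856 to 2174 CPM in fresh tissue and 1494 to 5253 CPM in culture. The contractile genes MYH11 (0.23 ± 0.57, adjusted p = 0.758), DES (0.28 ± 0.53, adjusted p = 0.675) and CNN1 (0.58 ± 0.52, adjusted p = 0.359) were not called, and TAGLN (2.22 ± 0.42) rose. Endothelial markers had 6 of 12 higher and 0 lower (5 higher and 0 lower without culture 3), with a summed level of 278 to 387 CPM in fresh tissue and 508 to 746 CPM in culture. PLVAP (3.64 ± 0.64) and TIE1 (1.81 ± 0.35) rose, and VWF (0.21 ± 0.54, adjusted p = 0.766) was not called. Macrophage markers had 3 higher and 0 lower of 12 (3 higher and 0 lower without culture 3), at a summed level of 44.7 to 78.9 CPM in fresh tissue and 73.7 to 188 CPM in culture. CD14 had 5.75, 1.36, 1.06, 4.96 and 2.32 CPM in fresh tissue and 34.0, 36.1, 39.0, 45.5 and 33.3 in culture (log2 change 3.61 ± 0.40, groups apart), while the complement chains C1QA (-0.33 ± 0.55, adjusted p = 0.638) and C1QB (0.55 ± 0.52, adjusted p = 0.387) were not called. Lymphocyte markers had 5 of 8 lower and 0 higher (0 higher and 5 lower without culture 3), at a summed level of 26.4 to 61.7 CPM in fresh tissue and 5.45 to 17.8 CPM in culture. CD247, a chain of the T cell receptor complex, fell from 13.9, 18.4, 9.64, 27.1 and 14.4 CPM in fresh tissue to 2.56, 1.60, 1.97, 3.56 and 2.53 in culture (log2 change -2.77 ± 0.29, groups apart). Neutrophil markers had 4 higher and 1 lower of 5 tested (3 higher and 1 lower without culture 3), at a summed level of 1338 to 2871 CPM in fresh tissue and 4469 to 10990.4 CPM in culture. LTF, which epithelium also makes, alone had 1477, 2231, 1330.0, 2121 and 2859.6 CPM in fresh tissue and 4454, 4609, 10935, 9825 and 5679.9 in culture (log2 change 1.83 ± 0.34, groups apart). The granule genes MPO and MMP8 and the receptor CSF3R had too few counts to test. Clear cell markers had 4 higher and 2 lower of 12 (4 higher and 1 lower without culture 3), and the defining regulator FOXI1 (0.013 ± 0.55, adjusted p = 0.986) was not called. Ciliated cell markers had 4 lower and 1 higher of 8 (1 higher and 4 lower without culture 3), with the cilium regulator FOXJ1 (-1.5 ± 0.29) lower. Of 9 sperm transcripts tested 8 fell and 1 rose (1 higher and 8 lower without culture 3), among them the sperm heads' protamine PRM2, which had 0.395, 3.97, 3.74, 1.10 and 14.6 CPM in fresh tissue and 0.0788, 0.137, 0, 0.160 and 0.105 CPM in culture (log2 change -5.52 ± 1.16, groups apart). Nerve and Schwann cell markers had 2 of 8 lower and 0 higher (0 higher and 2 lower without culture 3). Among 3 mast cell and 4 adipocyte markers tested, edgeR called 0. Of 7 erythroid genes listed, 6 were found by symbol among the deposited genes, and no erythroid gene passed the filter. Whether the make-up of cells changed, and what part that would have in the results above, was not tested. Among the called genes named here, edgeR's adjusted p was 9.35e-04 or less. Moving by over 1.5 times were the folds of PLVAP (log2 2.51 with limma-voom and 2.98 without culture 3) and PRM2 (log2 -4.26 with limma-voom and -4.48 without fresh 5). Sperm transcripts called lower numbered 3 with a filter at 1 CPM, and 5 with the 10 libraries alone.

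Genes in common use as references for quantitative PCR were read one by one. Of 21 tested 13 rose and 2 fell (15 higher and 2 lower without culture 3). GAPDH had 863, 879, 774, 778 and 675 CPM in fresh tissue and 4050.5, 3946, 3931, 3665 and 4305 in culture (log2 change 2.33 ± 0.14, groups apart). HPRT1 had 9.83, 9.47, 12.5, 8.83 and 7.27 CPM in fresh tissue and 42.1, 55.5, 23.0, 47.1 and 42.0 in culture (log2 change 2.13 ± 0.20, groups apart). GAPDH was even within each group, and HPRT1 was lowest in culture 3. The others that rose were PGK1 (2.73 ± 0.19), TUBB (1.66 ± 0.17), TFRC (1.63 ± 0.22), RPS19 (1.12 ± 0.13), ABL1 (1.06 ± 0.23), PPIA (1.05 ± 0.19), ACTB (0.99 ± 0.18), RPS7 (0.79 ± 0.17), ALAS1 (0.61 ± 0.19), RPLP0 (0.58 ± 0.13) and YWHAZ (0.58 ± 0.16). POLR2A (-0.54 ± 0.16) and SDHA (-0.25 ± 0.10) fell. Those not called were B2M (0.84 ± 0.37, adjusted p = 0.0655), RPL30 (0.28 ± 0.12, adjusted p = 0.0507), GUSB (0.28 ± 0.19, adjusted p = 0.230), RPL17 (0.14 ± 0.16, adjusted p = 0.499), EEF1A1 (0.13 ± 0.15, adjusted p = 0.505) and TBP (0.079 ± 0.17, adjusted p = 0.707), and a gene that misses the threshold is not shown to be equal. For the called genes just named, the adjusted p (edgeR) reached 0.0379 at most. Lost calls were those of SDHA without any 1 of fresh 2, fresh 3, fresh 4, fresh 5, culture 1, culture 2, culture 4 or culture 5, or with no filter or the 10 libraries alone (adjusted p = 0.0522 to 0.125). A call was gained by B2M without fresh 5 or culture 3, or with limma-voom (log2 change 0.94 to 1.06), and by RPL30 without any 1 of culture 3, culture 4 or culture 5, or with DESeq2, limma-voom or the mitochondrially encoded genes removed (log2 change 0.21 to 0.32).

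**Figure D5:**
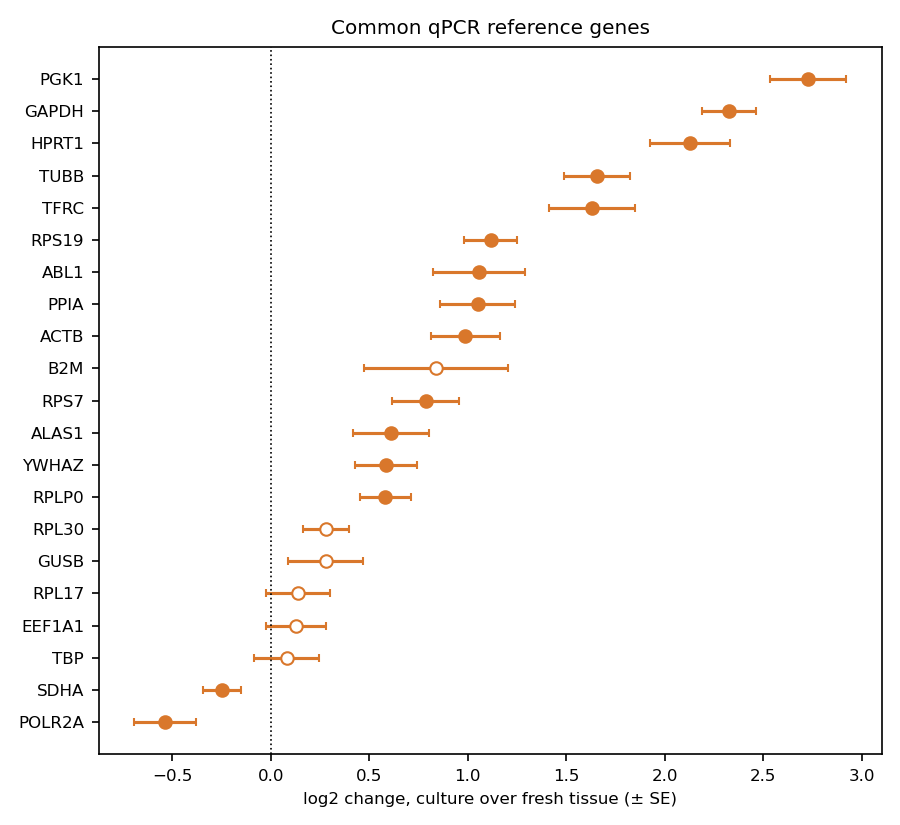
Log2 change of culture over fresh tissue for 21 common reference genes, as fitted value (points) with 1 SE (bars), ordered by value. Filled points were called at an adjusted p under 0.05 and open points were not. PGK1, GAPDH and HPRT1 lie above 2, and TBP and EEF1A1 close to 0.

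Libraries also differed in how much they varied. The SD of log2 CPM over the 5 libraries was larger in culture than in fresh tissue for 13626 of 18038 genes (75.5%), at medians of 0.541 and 0.291. Without culture 3 and fresh 3 it was 9917 genes (55.0%), at 0.304 and 0.277. Among genes with a mean of 3 log2 CPM or more in culture, those farthest above the other cultures in culture 3 were PLAC9 (3.88), CALCA (3.40), PMVK (3.26), DOHH (3.19), CB1H4orf48 (3.19) and COL18A1 (3.16), each given with its difference in log2 CPM. Those farthest below were F2RL2 (-3.87), NSUN7 (-3.72), CD1H11orf1 (-3.71), ZCCHC10 (-3.62), MRPS36 (-3.49) and ASPN (-3.46). They were chosen for that difference, which is given as a description.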

How the data were processed

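RNA was measured in 15 libraries of domestic cat epididymis corpus, 5 each of fresh tissue, explants in culture and explants cultured with extracellular vesicles. The authors deposited a table of raw read counts per gene for 38995 genes. RNeasy extraction and a TruSeq Stranded mRNA kit are given in the labels' protocols. Per the submitters' processing notes StringTie 2.1.3b, HISAT2 2.1.0, Trimmomatic 0.38 and Bowtie2 2.3.4.1 were in use, in an order they do not state. No source used here gives the genome build, the counting step or its strand setting, so genes that overlap, are antisense to each other or have near-identical copies (keratins, beta-defensins, ribosomal proteins and histones among them) are uncertain. All 38995 identifiers matched a RefSeq gene table, used for names only, and 3877 tested genes carry only a locus name. Columns were matched to samples by the column name in each sample's description, and groups were taken from the titles.

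Counts were tested with edgeR 4.0.16 (R 4.3.3): TMM scaling, filterByExpr (minimum count 10, total 15), a quasi-likelihood fit with group as the only term over all 15 libraries (12 residual degrees of freedom), and Benjamini-Hochberg adjustment over the 18038 genes tested, with 20957 left out for low counts. A gene is called at an adjusted p under 0.05. The SE was taken as the log2 change over the root of F. CPM uses TMM-scaled library sizes, and log2 CPM has a prior count of 2. The numbers of genes at 1 or 10 CPM used total counts without TMM scaling. So did the ranking of genes seen in 1 group only. Library measures were compared by exact permutation tests with SciPy 1.17.1. The lower bound for a gene at 0 is 3 counts over the group, and 95% intervals are exact and, like the bounds, cover counting error only. Scripts were tested on simulated data. Total counts per library are in the report.

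Alternatives were DESeq2 1.42.0, limma-voom (limma 3.58.1) with sample weights, scaling by upper quartiles or RLE, a filter at 1 CPM or none at all, the 10 libraries alone, the replicate number as a term, each library left out, and a 2-fold threshold. The text names the 10 largest gains and losses in CPM, the 8 highest genes seen in 1 group only in each direction, up to 4 members of a list or 3 of a family by p plus those that a role needs, all reference genes reported, and 6 genes on each side for culture 3. Genes with the largest folds that an earlier analysis of these data had listed were not repeated unless a result needed them. Members, lists and rules were chosen with earlier results of these data known. A count of promoter motifs was not made, since no sequences were used here. Results for some genes are not reported here.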

Additional observations from a re-analysis of the deposited data

Results flagged for a closer look

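Within each group of 5 libraries, the highest and the lowest value of every named gene and library measure were compared with the others, and 92 of 716 groups held a value whose gap to its nearest neighbour was over 0.71 of the whole range. About 1 in 20 groups would pass that limit if values were independent and normally distributed, which CPM values need not be. A group with only 1 library above 0 always passes it. No excess over chance is therefore read from the count. Culture 3 held 40 of these values, fresh 4 held 19, and the other libraries 0 to 6 each. The 12 genes named for culture 3 were chosen for that difference, so that their values here add no support. Values below are in CPM, with the range of the other 4 libraries of the group in brackets. What set these libraries apart was not tested. The share of counts in mitochondrially encoded protein genes was lowest in culture 3, at 0.179% (6.23 to 7.48 in the other 4).

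Culture 3 lay above the other cultures in ABCB9 9.50 (7.80 to 8.12), ABL1 131 (53.1 to 67.2), AXIN2 65.0 (34.3 to 41.5), BBC3 20.4 (4.21 to 7.59), CALCA 87.4 (4.85 to 15.7) and CALR 1298 (655 to 829). It held apart values also for CB1H4orf48 50.6 (3.20 to 8.05), CDKN1B 32.7 (19.5 to 21.1), CENPF 61.4 (25.4 to 35.2), COL18A1 1555 (138 to 234), COL4A1 1680 (188 to 578) and DDIT4 1336 (422 to 650.0). Apart on the same side were DLL1 22.3 (3.43 to 8.11), DOHH 48.5 (4.24 to 6.5), HK2 163 (51.0 to 76.5), HSP90B1 2013 (954 to 1168), ID1 84.1 (24.4 to 33.3) and KRT16 1034 (154 to 249). Further values on that side were KRT17 3125 (433 to 1206), KRT19 3795 (803 to 1375), KRT5 4198 (1187 to 2047), KRT7 1605 (248 to 616), P4HB 1958 (671 to 968) and PDIA4 289 (163 to 193). The same held for PGK1 1023 (502 to 648), PLAC9 206 (6.72 to 26.1), PMVK 462 (40.4 to 55.5), PSMC3 168 (102 to 116), PTGES 84.3 (31.8 to 45.6) and SDF2L1 43.0 (11.8 to 20.2). The same held for TIE1 77.6 (16.1 to 30.9), VDR 151 (77.3 to 95.9) and WNT4 173 (87.3 to 107). Culture 3 lay below the other cultures in CRY1 5.14 (12.3 to 14.3), EIF2AK3 26.9 (48.7 to 53.8), LAMP2 56.0 (279 to 339), MRPS36 1.45 (15.3 to 20.2), NR1D2 30.4 (69.7 to 85.1) and ZCCHC10 1.09 (12.4 to 16.2).

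Fresh 4 lay above the other fresh libraries in ANXA1 162 (110.1 to 118), BHLHE40 364 (67.8 to 116), BTG2 875 (147 to 285), CDKN1A 8.49 (1.32 to 2.99), CDKN2B 17.1 (2.95 to 6.75) and CXCL8 1.56 (0 to 0). It held apart values also for DLST 46.7 (40.3 to 42.1), ELF3 178 (57.0 to 67.9), ERRFI1 33.8 (8.51 to 11.5), HBEGF 19.0 (1.19 to 2.33), HMOX1 6.46 (1.23 to 1.75) and HSPA5 3204 (2140 to 2349). Apart on the same side were IL6 2.08 (0 to 0), KRT17 84.7 (12.6 to 18.2), LIF 12.0 (1.28 to 2.17), MCL1 193 (90.6 to 98.1), OVOL1 8.02 (1.62 to 2.68) and SOCS3 69.8 (8.61 to 24.8). Further values on that side were SPINK14 273 (74.9 to 97.1).

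Culture 2 lay above the other cultures in ALDH1A3 167 (44.4 to 69.9), DES 327 (55.8 to 133), HOXC8 9.83 (3.79 to 5.24), HSD11B1 8.09 (0.986 to 2.69), IL6 94.4 (5.36 to 31.2) and SERPINF1 109 (18.0 to 32.5). Culture 4 lay above the other cultures in CLDN2 73.6 (11.5 to 29.2), CXCL13 0.160 (0 to 0), SPINK14 0.200 (0 to 0), SPP1 36520 (13822 to 20251) and TCN1 313 (14.9 to 99.2). Culture 5 lay above the other cultures in CXCL10 43.7 (1.19 to 11.5). Fresh 1 lay above the other fresh libraries in HSD11B1 0.0878 (0 to 0), ID1 7.37 (1.67 to 2.66) and ITGA4 183 (114 to 131). Fresh 1 lay below the other fresh libraries in PRC1 3.91 (4.79 to 5.06), SDHA 149 (181 to 190.3) and SHMT2 17.3 (20.4 to 21.0). Fresh 2 lay above the other fresh libraries in DUSP6 31.5 (21.4 to 22.4), LDHA 86.5 (25.3 to 36.7), SCARA5 79.3 (20.2 to 30.1) and WFDC11 2258 (245 to 718). Fresh 3 lay above the other fresh libraries in CLDN2 0.0880 (0 to 0), COL18A1 114 (33.7 to 54.9), LCN12 172 (53.4 to 64.5), LCN6 15.9 (0.635 to 4.12), SPINT4 36.2 (1.27 to 8.56) and TGM1 19.8 (6.46 to 9.38). Fresh 5 lay above the other fresh libraries in CXCL9 7.47 (0.866 to 2.76), ETV4 0.206 (0 to 0), KRT16 6.75 (3.37 to 4.31) and PRM2 14.6 (0.395 to 3.97). Fresh 5 lay below the other fresh libraries in SLC30A2 107 (213 to 233).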

How the results depend on the processing

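The 9786 genes called numbered 10356 with DESeq2, 11036 with limma-voom, 9801 with RLE or upper-quartile scaling, 10223 with no filter, 9122 with a filter at 1 CPM and 8671 with the 10 libraries alone. With 1 library left out they numbered 9039 to 11090 (4794 to 5720 higher and 4231 to 5370 lower), with the most without culture 3, where 9358 were shared with the same direction. As a share of the genes tested this is 49.4% to 59.9%, under 50% without fresh 3 or fresh 5, and it was 36.3% with no filter. With the 10 libraries alone 17339 genes passed the filter and 50% of them were called. DESeq2 shared 9672. Upper-quartile scaling gave 4643 higher and 5158 lower, a change of balance from 5175 and 4611. A 2-fold threshold left 6568 genes, 3433 higher and 3135 lower. Chosen after the data were seen, the fit without every library numbered 3 called 10219 genes, and that with the mitochondrially encoded genes removed 9770. Of 304 called genes named in the text, 294 kept their call and direction in every refit outside the replicate block and 10 lost it in 1 or more. PMVK, not called (log2 change 0.38), had -0.99 with limma-voom, -1.05 to 0.63 with 1 library left out, the lowest without culture 3, and -1.14 without every library numbered 3, and CB1H4orf48 (0.55) had -0.87 with limma-voom. The negative values were called. The cause was not tested.

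Since the groups do not overlap in the 4 library measures, leaving out 1 library could not change their direction. The p was then set by the group sizes alone, at 0.0159 in every case (exact permutation test, adjusted p). Only sizes are therefore compared: the mitochondrial share differed by -5.06 to -3.23 percentage points, the ribosomal protein share by 1.18 to 1.57, the share of the top 100 genes by -4.09 to -3.26 and the number of genes at 1 CPM by -748.5 to -631.0. Without the mitochondrially encoded genes the top 100 share differed by -0.302 percentage points (exact permutation test, adjusted p = 0.77), and at 10 CPM culture had 257 more genes (exact permutation test, adjusted p = 0.151). The count of genes with a larger spread in culture fell from 13626 to 9917 without the libraries numbered 3.

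The deviations of same-numbered fresh and culture libraries from their group means correlated across genes at 0.20, 0.34, 0.033, 0.27 and 0.29 for numbers 1 to 5, and 4 of 5 cultures matched the fresh library of their own number best. Between libraries of different numbers the correlation reached 0.074 at most. With 1 pair under 0.1, that of culture 3, the main fit left the number out. The permutation tests of the library measures are unpaired as well, and their p holds only if same-numbered libraries are independent. A paired test was not run. The labels do not say whether samples of the same number share an animal, and this was not settled here. With the replicate number as a block 10438 genes were called, 5325 higher and 5113 lower, and 9562 were shared. Among genes named in the text 2 lost a call and 7 gained one. Depth limits low genes: those left out by the filter were not tested, and changes near 0 CPM have wide errors.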

Other observations

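Families outside the groups described above were counted in the same way, with the shares over all genes tested as the background. Claudins, which set what passes between epithelial cells, had 5 higher and 2 lower of 15 (6 higher and 4 lower without culture 3). CLDN2, which forms pores for cations and water, had 2 counts in all of fresh tissue and was 1745 times higher in culture (95% interval 483 to 14417), where the cultures held 29.2, 13.9, 25.8, 73.6 and 11.5 CPM. CLDN8 (-3.25 ± 0.34) went down. Of 6 SPINK protease inhibitors 1 rose and 3 fell (1 higher and 3 lower without culture 3), with SPINK14 at 83.2, 74.9, 97.1, 273 and 89.9 CPM in fresh tissue and 0, 0, 0, 0.200 and 0 in culture (log2 change -11.26 ± 0.75, groups apart). Both PATE proteins tested fell, PATE3 (-8.04 ± 0.95) and PATE1 (-6.13 ± 0.89). Of 7 glutathione transferases 0 rose and 3 fell (0 higher and 3 lower without culture 3), with GSTA4 (-2.09 ± 0.28) lowest in p. Cytochromes P450 had 15 higher and 5 lower of 28 (16 higher and 4 lower without culture 3). CYP11A1, the side-chain cleavage enzyme that starts steroid synthesis, had 15.1, 38.0, 47.4, 45.0 and 38.6 CPM in fresh tissue and 1.97, 1.83, 2.80, 3.76 and 3.27 in culture (log2 change -3.76 ± 0.54, groups apart). By edgeR, the adjusted p of these called genes was at most 3.50e-05. The fold change moved by over 1.5 times for SPINK14 (log2 -14.43 without culture 4, where the other culture libraries are at 0 and the fit depends on the prior count). Among ratios from few counts, those that moved by over 1.5 times were of CLDN2, at least 917-fold without fresh 3 (which holds both counts) and 1102-fold without culture 4. Claudins genes called lower numbered 5 with limma-voom.

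Dual-specificity phosphatases, many of which switch off MAP kinases, had 10 higher and 4 lower of 21 (10 higher and 5 lower without culture 3), with DUSP7 (3.70 ± 0.23) and DUSP14 (2.84 ± 0.30) up beside DUSP4 and DUSP6. ADAM and ADAMTS proteases had 13 higher and 2 lower of 32 (13 higher and 3 lower without culture 3). ADAM17, the sheddase that frees EGF family ligands, had 39.6, 31.4, 34.1, 39.8 and 37.2 CPM in fresh tissue and 76.6, 73.3, 86.3, 88.9 and 93.9 in culture (log2 change 1.20 ± 0.11, groups apart). Tetraspanins had 10 higher and 4 lower of 20 (9 higher and 4 lower without culture 3), with TSPAN9 (1.97 ± 0.25) up and TSPAN13 (-2.35 ± 0.32) down. Potassium channels had 19 higher and 15 lower of 57 (15 higher and 15 lower without culture 3), close to the background of 28.7% and 25.6%. Among them KCNE4 (4.35 ± 0.46) rose, and KCNJ12 (-3.03 ± 0.34) and KCNJ5 (-2.73 ± 0.35) fell. Proton pump subunits had 3 higher and 6 lower of 22 (6 higher and 5 lower without culture 3), with ATP6V0E2 (-1.52 ± 0.15) and ATP6V1C2 (-2.73 ± 0.34) down. Proteins of the large mitochondrial ribosome had 14 higher and 5 lower of 48 (18 higher and 9 lower without culture 3), and those of the small one 5 and 3 of 29 (8 higher and 5 lower without culture 3). The largest adjusted p (edgeR) of the called genes named here was 2.89e-05. ADAM and ADAMTS genes called lower numbered 7 with limma-voom, and proton pump subunits genes called higher numbered 6 with limma-voom, and large mitochondrial ribosome proteins genes called lower numbered 8 with DESeq2 or upper-quartile scaling, and 10 with limma-voom, and small mitochondrial ribosome proteins genes called higher numbered 3 without fresh 3, and small mitochondrial ribosome proteins genes called lower numbered 5 with limma-voom or upper-quartile scaling, and 6 with DESeq2.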
